A study of Drosophila melanogaster with 11 samples.

Results

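The maltase gene family of Drosophila melanogaster was examined in RNA-seq of the third antennal segment, the segment that carries the olfactory neurons. The 10 family members, Mal-A1 to Mal-A8, Mal-B1 and Mal-B2, were taken by gene symbol from a table of 16727 genes. The family was chosen on measured values of these same libraries: earlier results had shown Mal-B1 higher in mir-284 KO antennae and Mal-A1 higher at 25 d. Those differences are therefore given as levels and fold changes, with no test read from them, and tests are given for the other comparisons. For Mal-B1 and Mal-A1 the difference of the age changes is made of the same values. No test is read from it either.

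The groups were mir-284 KO flies at 25 d (2 libraries), mir-284 KO flies at 3 d (3 libraries), w1118 wild-type (WT) flies at 25 d (3 libraries) and WT flies at 3 d (3 libraries). The KO flies (w1118;;mir-284 KO) carry a knockout of the microRNA gene mir-284 in the w1118 background, reached by 7 rounds of outcrossing, and WT flies share that background. All flies were aged on cornmeal-yeast-agar medium. The submitters call the replicates biological; the sex of the flies is not given in the labels. The study asked which transcripts depend on mir-284 at each age.

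Maltases are alpha-glucosidases, enzymes that release glucose from the non-reducing end of maltose, sucrose and short glucose chains. Insect genomes carry several of them, often as tandem copies, and in the fly they are best known from the gut, where they complete starch digestion after amylase. The members are described by gene cluster and level.

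On the dm6 genome, the 8 Mal-A genes lay side by side at 2R:8449664-8473961, a stretch of 24.3 kb with 0 other genes starting and ending between them. Mal-B1 and Mal-B2 lay on the same strand at 2L:11847226-11852881, a stretch of 5.7 kb within the span of Pde1c, a phosphodiesterase gene on the other strand. Mal-A1 (FBgn0002570) shared 82 bases, 4.491% of its exon length, with Cyp4e1, a cytochrome P450 gene on the other strand. Mal-A8 shared 6 bases with mtt on the other strand. Strand was ignored when reads were counted, so reads in these shared bases could not be assigned to either gene, and the Mal-A1 values carry that uncertainty.

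The 11 libraries held 24619699 to 55485825 counts in genes. The targeted gene, mir-284, had 0 counts in all 11 libraries, WT included, so these data could not check the deletion. The white gene (w), which is mutant in the w1118 background, had 32.0 to 153 CPM (TMM-scaled counts per 1000000 counts) in the 5 KO libraries. In the 6 WT libraries it had 0.902 to 5.70 CPM, so it separated the libraries of the 2 genotypes. Both genotypes are described as w1118, so the lines differed in w RNA beyond what that description states. The source of that difference was not tested. Antennal markers were abundant throughout but uneven. Orco, the odorant co-receptor, averaged 1930 to 2920 CPM in the 4 groups, with 700 CPM in WT 3 d replicate 3. The 8 antennal markers summed to 81200 CPM in KO 25 d replicate 1 and 19200 CPM in KO 25 d replicate 2. Their sums were 26700 to 29900 CPM in KO 3 d, 21000 to 23300 in WT 25 d and 13300 to 24400 in WT 3 d. Libraries that stood apart were KO 25 d replicate 1 on the first principal component (163, against -47.6 to 13.3 for the others) and both 3 d libraries numbered 3 on the second (69.4 in KO and 80.1 in WT, against -37.2 to 10.7). Results that rest on them are given with and without them.

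Of the 10 members, 4 made up nearly all maltase counts: Mal-B1 (54109 counts over the 11 libraries), Mal-B2 (17054), Mal-A5 (4930) and Mal-A1 (3940). These were detected in every library. The other 6 stayed under 0.52 CPM in every library, and 2 of those 6, Mal-A2 and Mal-A6, passed the filter on low counts, as did the 4 abundant members.

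**Figure D1:**
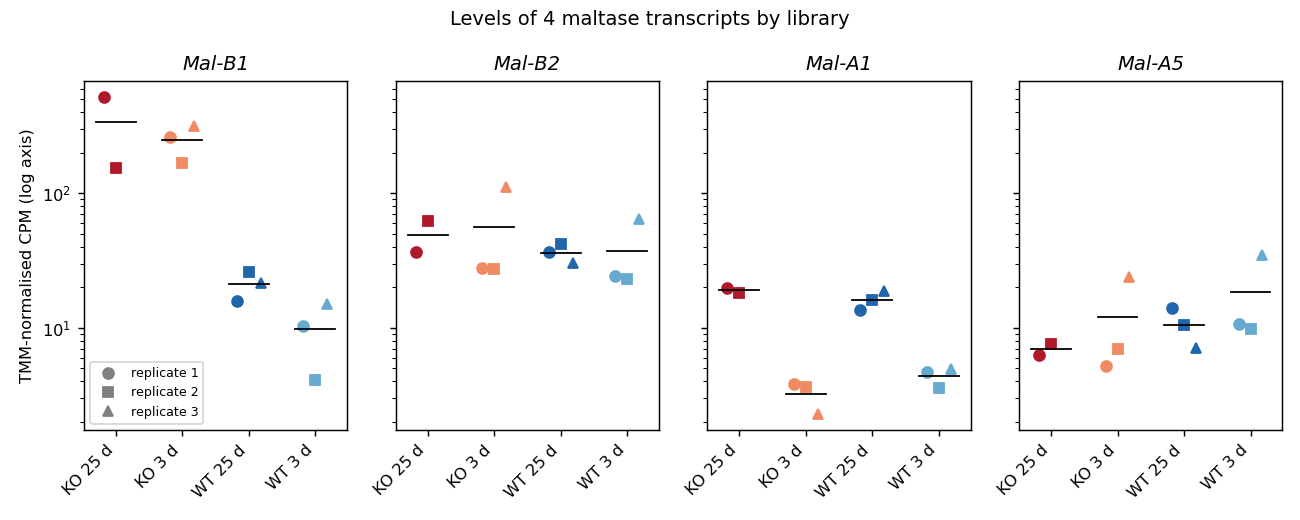
TMM-normalised CPM (log axis) of the 4 abundant maltase transcripts in KO 25 d, KO 3 d, WT 25 d and WT 3 d antennae; each point is 1 library, its shape gives the replicate number, and bars are group means. Mal-B1 lay at 155 to 521 CPM in the 5 KO libraries, above the 4.10 to 26.0 CPM of the 6 WT libraries, and Mal-A1 lay higher in all 25 d libraries than in all 3 d libraries.

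Mal-B1 (FBgn0032381), the first gene of the 2L pair, had 521 and 155 CPM in the KO 25 d libraries and 260, 168 and 315 CPM in the KO 3 d libraries. It had 15.7, 26.0 and 21.7 CPM in the WT 25 d libraries and 10.3, 4.10 and 15 CPM in the WT 3 d libraries. All 5 KO libraries were above all 6 WT libraries, and the lowest KO value was in KO 25 d replicate 2. Means were 338 ± 259 CPM in KO 25 d (SD, n = 2) and 21.1 ± 5.18 CPM in WT 25 d (SD, n = 3). At 3 d they were 248 ± 74.6 CPM in KO and 9.78 ± 5.45 CPM in WT (SD, n = 3 each). The log2 fold change of KO over WT was 4.66 (SE 0.58) at 3 d and 4.0 (SE 0.58) at 25 d. These differences were among the values on which the family was chosen. KO 25 d replicate 1, which stood apart, carried much of the 25 d value: without it the log2 fold change was 2.87. With both 3 d libraries numbered 3 left out it was 4.89 at 3 d.

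Fat body markers were also measured in these libraries. The 8 listed markers, of which 0 were at 0 counts in all 11 libraries, summed to 2650 and 954 CPM in KO 25 d, 2140, 8310 and 8900 CPM in KO 3 d, 1480, 204 and 152 CPM in WT 25 d, and 74.1, 18.1 and 5260 CPM in WT 3 d. Of the 8, 0 were called for KO versus WT at 3 d or at 25 d. The yolk protein gene Yp3, the most abundant of them in each group, averaged 757 CPM in KO 25 d, 3270 in KO 3 d, 214 in WT 25 d and 756 in WT 3 d. The larval serum protein gene Lsp2 was lower in KO at 25 d on average, at 5.49 CPM against 112 in WT. At 3 d it averaged 6.88 CPM in KO and 27.0 in WT. Its WT 3 d libraries ran from 0.309 to 78.9 CPM, and its KO 3 d libraries from 6.82 to 6.95 CPM. Lsp1beta was higher in KO on average, at 618 CPM against 26.7 at 25 d and 103 against 7.03 at 3 d. The median log2 fold change of the 8 for KO over WT was 1.56 at 3 d and 1.3 at 25 d. WT 3 d replicate 3 had a higher fat body sum than KO 25 d replicate 1, KO 25 d replicate 2 and KO 3 d replicate 1, and it had 15 CPM of Mal-B1 against 521, 155 and 260 CPM in those KO libraries. The part of fat body RNA in the Mal-B1 values was not tested. In whole tissue, fewer cells of a type and less RNA per cell cannot be told apart.

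Age was tested for Mal-B1, since the choice of the family did not rest on it. The log2 fold change of 25 d over 3 d was 0.45 in KO (95% interval -0.77 to 1.67, adjusted p = 0.748), and the libraries of the 2 ages overlapped. Its sign turned to -0.67 without KO 25 d replicate 1. In WT it was 1.11 (95% interval -0.02 to 2.24, adjusted p = 0.632), with each 25 d library above each 3 d library. The age change in KO minus that in WT was -0.66 (95% interval -2.33 to 1.01, adjusted p = 0.858). With all 11 libraries these intervals include 0 and also changes of over 2-fold. The difference of the age changes equals that of the 2 genotype values on which the family was chosen. No test is read from it, here or in the fits below. With both 3 d libraries numbered 3 left out, the age change was 0.66 in KO (adjusted p = 0.631) and 1.55 in WT (95% interval 0.21 to 2.90, adjusted p = 0.496), and the difference was -0.89 (adjusted p = 0.862). With all 3 libraries that stood apart left out, it was -0.46 in KO (95% interval -2.11 to 1.20, adjusted p = 0.822) and 1.55 in WT (95% interval 0.17 to 2.92, adjusted p = 0.168), and the difference was -2.0 (95% interval -4.19 to 0.18, adjusted p = 0.422). The age change in WT was called by limma voom with library quality weights (log2 1.63, adjusted p = 0.0341), which called 16.8% of all genes in that comparison.

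Mal-B2 (FBgn0032382), the next gene on the same strand as Mal-B1, showed no such separation of the genotypes. It had 36.6 and 61.8 CPM in KO 25 d, 28.0, 27.3 and 112 CPM in KO 3 d, 36.3, 41.8 and 30.3 CPM in WT 25 d, and 24.1, 23.0 and 64.0 CPM in WT 3 d. The genotypes overlapped at both ages, and the highest library of each 3 d group was the one numbered 3. The log2 fold change of KO over WT was 0.59 at 3 d (SE 0.57, 95% interval -0.67 to 1.85, adjusted p = 0.810) and 0.45 at 25 d (SE 0.63, 95% interval -0.95 to 1.84, adjusted p = 0.688). For 25 d over 3 d it was -0.18 in KO (95% interval -1.59 to 1.23, adjusted p = 0.921) and -0.03 in WT (95% interval -1.29 to 1.22, adjusted p = 0.999).

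The Mal-B2 result depended on the libraries that stood apart. With both 3 d libraries numbered 3 left out, the age change was 0.83 in KO (adjusted p = 0.402) and 0.62 in WT (adjusted p = 0.507). With KO 25 d replicate 1 left out as well, a choice made after the data were seen, Mal-B2 was higher at 25 d than at 3 d by 1.17 in KO (adjusted p = 0.00975) and by 0.62 in WT (adjusted p = 0.0149). In that same fit it was higher in KO than in WT at 25 d by 0.78 (adjusted p = 0.0119), while the 3 d difference was 0.22 (adjusted p = 0.352). That fit called 1.74% of all genes for age in KO, 9.13% for age in WT and 7.38% for KO versus WT at 25 d. KO 25 d is then a single library, assumed to vary like the other groups.

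Within a library, the ratio of Mal-B1 to Mal-B2 per exon length was 18.2 and 3.22 in KO 25 d and 11.9, 7.87 and 3.61 in KO 3 d. It was 0.554, 0.798 and 0.919 in WT 25 d and 0.547, 0.229 and 0.300 in WT 3 d. Mal-B1 was thus the more abundant transcript of the pair in every KO library and Mal-B2 in every WT library.

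Mal-A1, at one end of the 2R cluster, had 19.9 and 18.1 CPM in KO 25 d and 3.81, 3.60 and 2.28 CPM in KO 3 d. It had 13.6, 16.1 and 18.7 CPM in WT 25 d and 4.67, 3.58 and 4.97 CPM in WT 3 d. All 5 libraries from 25 d were above all 6 from 3 d, and the 3 libraries that stood apart did not lie outside this pattern. The log2 fold change of 25 d over 3 d was 2.55 (SE 0.27) in KO and 1.87 (SE 0.25) in WT, and both belong to the values on which the family was chosen. With the 3 libraries that stood apart left out they were 2.30 in KO and 1.96 in WT.

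Genotype was tested for Mal-A1. The log2 fold change of KO over WT was -0.45 at 3 d (SE 0.24, 95% interval -0.98 to 0.09, adjusted p = 0.572) and 0.23 at 25 d (SE 0.26, 95% interval -0.35 to 0.82, adjusted p = 0.609). The genotypes overlapped at both ages. The age change in KO minus that in WT was 0.68 (95% interval -0.11 to 1.47, adjusted p = 0.790). Cyp4e1, whose last bases overlap Mal-A1, averaged 34.2 CPM in KO 25 d, 42.7 in KO 3 d, 24.6 in WT 25 d and 28.6 in WT 3 d. Its log2 age changes were -0.32 in KO and -0.22 in WT, of opposite sign to those of Mal-A1. The part of Cyp4e1 reads in the Mal-A1 values was not tested.

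Mal-A5 (FBgn0050359), in the middle of the 2R cluster, had 6.29 and 7.56 CPM in KO 25 d and 5.22, 6.93 and 23.8 CPM in KO 3 d. It had 14, 10.5 and 7.06 CPM in WT 25 d and 10.7, 9.87 and 35.0 CPM in WT 3 d. Libraries overlapped in each of the 4 comparisons of groups, and the 2 highest libraries were both 3 d libraries numbered 3. The log2 fold change of KO over WT was -0.63 at 3 d (95% interval -2.0 to 0.74, adjusted p = 0.812) and -0.61 at 25 d (95% interval -2.17 to 0.95, adjusted p = 0.621). That of 25 d over 3 d was -0.79 in KO (adjusted p = 0.653) and -0.81 in WT (adjusted p = 0.841). Without both 3 d libraries numbered 3 these age values changed sign, to 0.19 in KO and 0.04 in WT, and the 3 d genotype value was -0.76 (95% interval -1.54 to 0.02, adjusted p = 0.514).

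**Figure D2:**
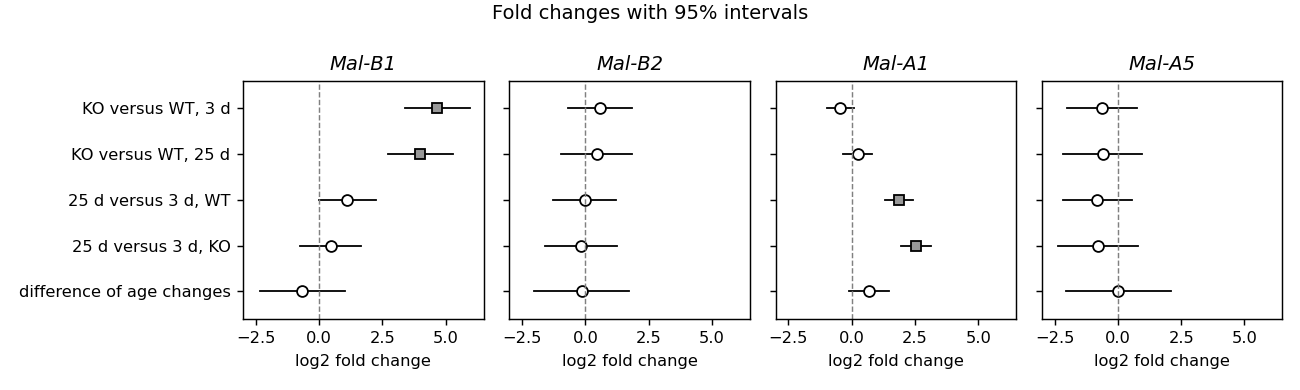
Log2 fold changes (points) with 95% intervals (lines) of the 4 abundant maltase genes for KO versus WT at 3 d and at 25 d, 25 d versus 3 d in WT and in KO, and the age change in KO minus that in WT. Grey squares mark the values on which the family was chosen, Mal-B1 for genotype (4.66 and 4.0) and Mal-A1 for age (1.87 and 2.55), from which no test is read, and open circles mark the others, whose intervals with all 11 libraries include 0. For Mal-B1 and Mal-A1 the last comparison is the difference of the marked values, so no test is read from it either.

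In counts over all genes, edgeR's quasi-likelihood test called 1.39% of 11867 genes for KO versus WT at 3 d, 1.74% for KO versus WT at 25 d, 0.152% for age in WT, 0.0421% for age in KO and 0.0253% for the difference of the age changes. Of the 6 maltase genes tested, 1 was called in each of the first 4 comparisons, Mal-B1 for genotype and Mal-A1 for age, and 0 were called for the difference of the age changes. Nothing is read from these counts, because the family was chosen on them. The median log2 fold change of the 6 tested members was 0.12 and -0.19 for KO versus WT at 3 d and 25 d, and 0.28 and -0.37 for age in WT and in KO. Over all genes tested the same medians lay between -0.04 and -0.01. The medians of the members include the chosen values and Mal-A2 and Mal-A6, which were near the detection limit. Nothing about the family is read from them. For the difference of the age changes, 1 of the 6 (Mal-A6) had an unadjusted p under 0.05 (0.0434, adjusted p = 0.790), and the count called was 0 in all 21 alternative settings run for it.

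Both 3 d libraries numbered 3 were high for the same maltases. Mal-B2 in replicate 3 was 4.05 times the mean of the other 2 libraries in KO 3 d and 2.72 times in WT 3 d. Mal-A5 was 3.93 times that mean in KO 3 d and 3.39 times in WT 3 d. Mal-B1 was 1.47 and 2.08 times, and Mal-A1 0.616 and 1.20 times, in KO 3 d and WT 3 d. Orco was lower in the same libraries, at 0.623 times in KO 3 d and 0.274 times in WT 3 d.

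Marker sums of other tissues were mixed there. Within the 3 d groups, the muscle and fat body sums were highest in the library numbered 3 in both genotypes. The midgut sum was highest there in WT only. The fat body sum was 8900 CPM in KO 3 d replicate 3, against 2140 and 8310 CPM in replicates 1 and 2. For WT 3 d replicate 3 it was 5260 CPM, against 74.1 and 18.1 CPM. The sum of 7 hemocyte markers was 294 CPM in KO 3 d replicate 3, against 360 and 401 CPM in replicates 1 and 2. In WT 3 d replicate 3 it was 420 CPM, against 298 and 343 CPM. The 24 listed midgut proteases, 3 of them at 0 counts in all 11 libraries, summed to 91.9 and 5.92 CPM in KO 25 d, 3.71, 159 and 93.9 CPM in KO 3 d, 5.47, 10.8 and 26.3 CPM in WT 25 d, and 24.2, 5.21 and 166 CPM in WT 3 d. The 12 muscle markers summed to 465 and 296 CPM in KO 25 d, 488, 488 and 1470 CPM in KO 3 d, 579, 559 and 410 CPM in WT 25 d, and 1410, 1120 and 2310 CPM in WT 3 d. The midgut sum was also high in KO 3 d replicate 2, where Mal-A5 was 6.93 CPM and Mal-B2 was 27.3 CPM, and in KO 25 d replicate 1, where they were 6.29 and 36.6 CPM. The part of these tissues in the Mal-A5 and Mal-B2 values was not tested.

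**Figure D3:**
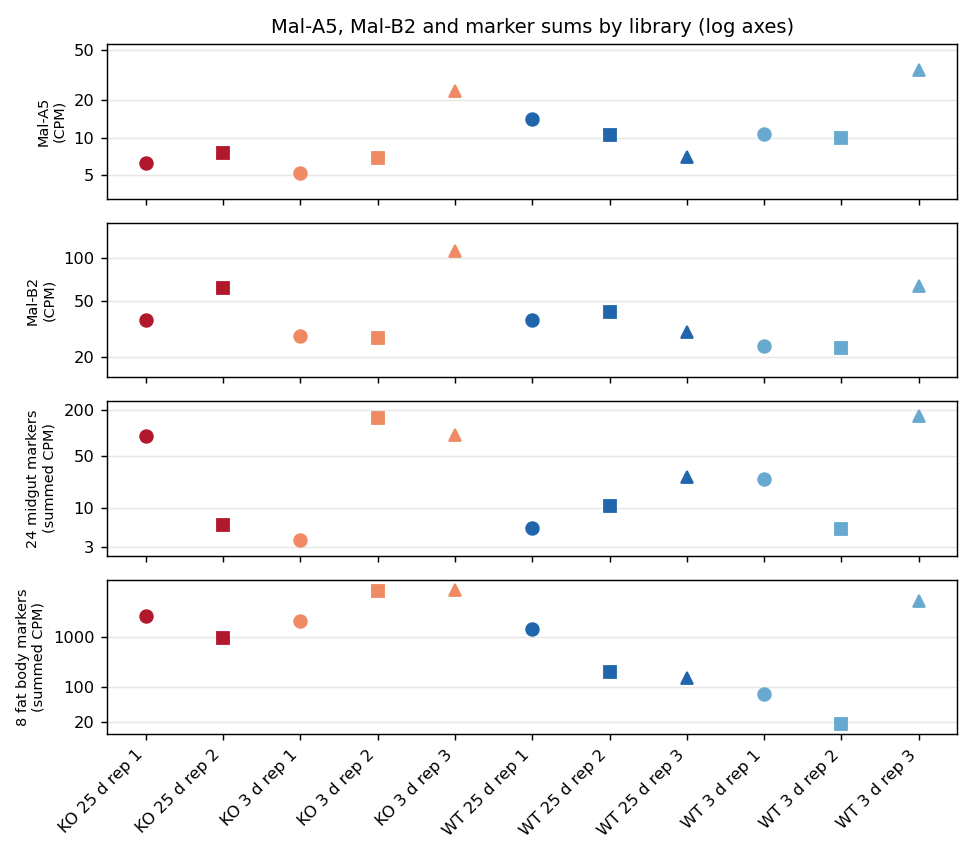
Mal-A5 and Mal-B2 (CPM) and the summed CPM of 24 midgut and 8 fat body markers in each of the 11 libraries, on log axes; colours give the group and shapes the replicate number. Both 3 d libraries numbered 3 hold the highest Mal-A5 and Mal-B2 values, while the midgut sum is also high in KO 3 d replicate 2 and KO 25 d replicate 1. Within each 3 d group the fat body sum is highest in the library numbered 3, and it is also high in KO 3 d replicate 2.

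To compare members with each other, counts were put on a per-length scale (RPKM, TMM-scaled CPM per kb of exon). In KO 25 d the order was Mal-B1 (186 ± 143 RPKM), Mal-B2 (21.1 ± 7.63), Mal-A1 (10.4 ± 0.714) and Mal-A5 (3.29 ± 0.427; SD, n = 2). In KO 3 d it was Mal-B1 (137 ± 41.1), Mal-B2 (24.0 ± 20.9), Mal-A5 (5.71 ± 4.90) and Mal-A1 (1.77 ± 0.454; SD, n = 3). Neighbours in these 2 orders did not overlap over libraries. In WT 25 d the order was Mal-B2 (15.5 ± 2.46), Mal-B1 (11.6 ± 2.86), Mal-A1 (8.85 ± 1.4) and Mal-A5 (5.02 ± 1.66; SD, n = 3). There Mal-B2 overlapped Mal-B1 and Mal-B1 overlapped Mal-A1 over libraries, while Mal-A5 lay below Mal-A1. Within each WT 25 d library the order was the same as that of the means. In WT 3 d it was Mal-B2 (15.9 ± 10), Mal-A5 (8.81 ± 6.78), Mal-B1 (5.39 ± 3.00) and Mal-A1 (2.41 ± 0.400; SD, n = 3), and each overlapped the next over libraries. Within each WT 3 d library Mal-B2 was the highest of these and Mal-A1 the lowest. Mal-B1 exceeded Mal-A5 in replicate 1 only.

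The summed RPKM of the 10 genes was 221 ± 136 in KO 25 d, 169 ± 62.9 in KO 3 d, 41.3 ± 4.39 in WT 25 d and 32.8 ± 19.8 in WT 3 d (SD). Mal-B1 supplied 79.3% and 82.6% of it in KO 25 d and KO 3 d, and 28.0% and 16.9% in WT 25 d and WT 3 d. The share of Mal-A1 was 5.67% in KO 25 d, 1.21% in KO 3 d, 21.5% in WT 25 d and 8.63% in WT 3 d. By RPKM, Mal-B1 ranked 388 to 824 among all 16727 genes in the KO libraries, and 4572 to 8321 in the WT libraries. As Mal-B1 is part of the sum, the genotype difference of the sum is a description of the same values.

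**Figure D4:**
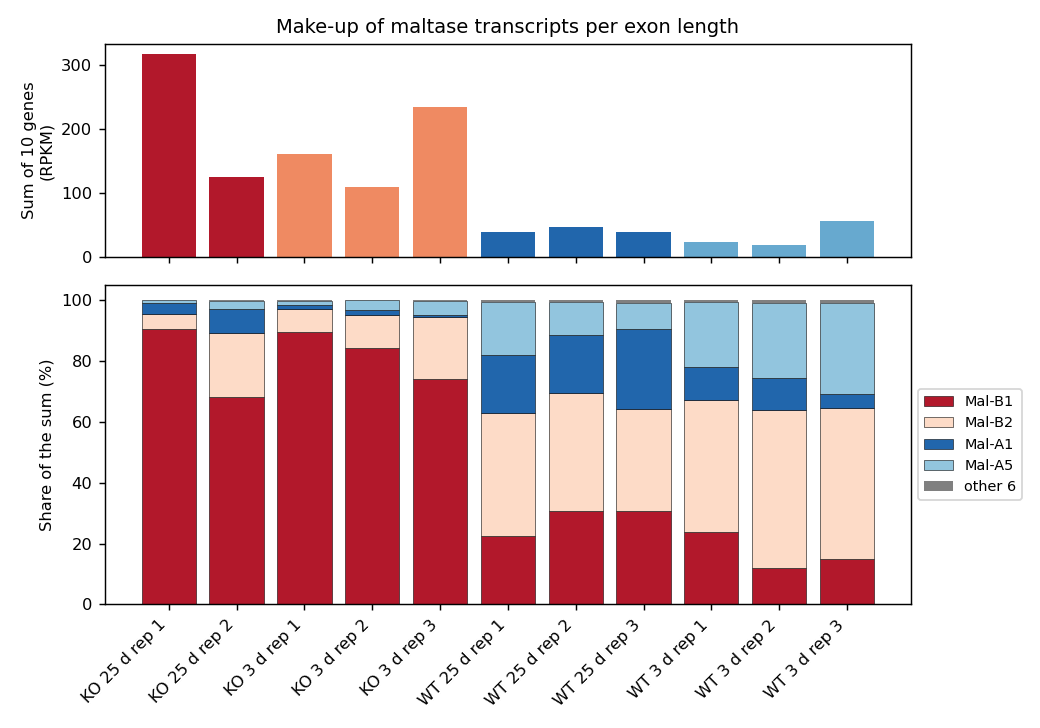
Top, summed RPKM of the 10 maltase genes in each library, coloured by group; bottom, the percent of that sum from Mal-B1, Mal-B2, Mal-A1, Mal-A5 and the other 6 genes. Mal-B1 supplies 68.0% to 90.6% in KO libraries and 11.9% to 30.8% in WT libraries.

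The ratio of Mal-A1 to Mal-A5 per exon length, 2 genes of 1 cluster, was 3.65 and 2.75 in KO 25 d and 0.841, 0.598 and 0.110 in KO 3 d. It was 1.12, 1.76 and 3.06 in WT 25 d and 0.502, 0.418 and 0.164 in WT 3 d. Mal-A1 exceeded Mal-A5 in all 5 libraries from 25 d and in 0 of the 6 from 3 d.

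The 6 scarce members, all in the 2R cluster, were near the detection limit. The limit that a count of 0 allows, 3 counts in a library, corresponded to 0.0677 to 0.110 CPM, and these limits cover counting error only. Mal-A2 (78 counts in all) had up to 14 counts and was missing only from KO 25 d replicate 1. Mal-A6 (58 counts in all) had 0 counts in both KO 25 d libraries, 16, 0 and 6 in KO 3 d, 3, 11 and 3 in WT 25 d, and 6, 8 and 5 in WT 3 d. Its KO versus WT test at 25 d gave an adjusted p of 0.213. Mal-A4 (28 counts in all) had 0 counts in all 5 KO libraries, 0, 2 and 14 in WT 25 d, and 0, 4 and 8 in WT 3 d, and did not pass the filter. Mal-A3 had 9 counts in 2 libraries and Mal-A7 had 8 counts in 3 libraries. Mal-A8 had 0 counts in all 11 libraries. At this depth no difference in Mal-A2 or Mal-A6 passed the test, and the other 4 were not tested.

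Of the genes beside the clusters, 0 were called in any of the 5 comparisons. Of all genes, 1.74% were called for KO versus WT at 25 d, the highest share, and 0.0253% for the difference of the age changes, the lowest. With so few neighbours, 0 is near those shares. Among the neighbours, 4 tests in 2 genes, Cyp4e1 and CG14933, had an unadjusted p under 0.05. Next to the 2R cluster, Cyp4e1 had a log2 fold change of KO over WT of 0.58 at 3 d (adjusted p = 0.0752) and 0.47 at 25 d (adjusted p = 0.141), and Cyp4e2, another cytochrome P450 gene, of 0.19 and 0.09 (adjusted p = 0.857 and 0.861). Cyp4e1 was called in 5 of 22 alternative settings at 3 d and in 2 of 22 at 25 d, the genotypes not overlapping at either age. Over the planned settings, 64 to 2382 of all genes were called at 3 d and 20 to 5090 at 25 d. The share of all genes without overlap was not worked out. On 2L, Pde1c, which spans Mal-B1 and Mal-B2, averaged 171 CPM in KO 25 d, 162 in KO 3 d, 166 in WT 25 d and 189 in WT 3 d, with log2 fold changes of KO over WT of -0.22 at 3 d and 0.04 at 25 d (adjusted p = 0.801 and 0.931). CG14933, upstream of Mal-B1, had 0.08 at 3 d and -0.63 at 25 d (adjusted p = 0.953 and 0.211). Its age change in WT was 1.04 (adjusted p = 0.126), called in 6 of 22 alternative settings. CG42751, just downstream of Mal-B2, had -0.03 and 2.07 (adjusted p = 0.999 and 0.304). CR44279, CG42486, mtt and Or33a, the remaining neighbours, averaged under 4 CPM in each group.

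**Figure D5:**
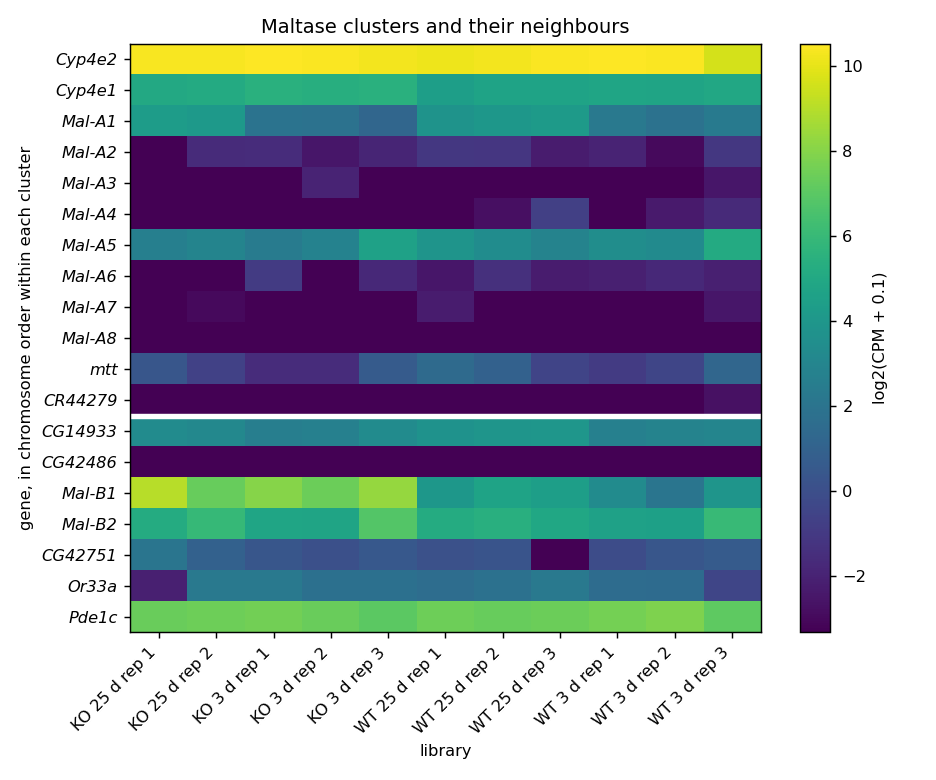
Heat map of log2(CPM + 0.1) per library for the 2R cluster (top block) and the 2L pair (bottom block) with neighbouring genes in chromosome order; Pde1c, which spans the 2L pair, is the last line. Mal-B1 is bright in the 5 KO libraries, Mal-A1 brighter at 25 d, and Mal-A2, Mal-A3, Mal-A4, Mal-A6, Mal-A7 and Mal-A8 are dark throughout.

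Other genes of sugar handling were read from 4 lists, which were chosen with earlier results known. Of 6 other carbohydrate hydrolases, 0 were called by edgeR in any of the 5 comparisons, against 1.39% and 1.74% of all genes for genotype at 3 d and 25 d. For genotype at 25 d, 2 of the 6 had an unadjusted p under 0.05: the trehalase gene Treh (log2 -0.44, unadjusted p = 0.0232, adjusted p = 0.188) and the beta-galactosidase gene Gal (log2 1.55, unadjusted p = 0.0116, adjusted p = 0.150). For the difference of the age changes, Treh had a log2 value of -0.54 (95% interval -1.03 to -0.05, unadjusted p = 0.0327, adjusted p = 0.790). DESeq2 called Treh and Gal for genotype at 25 d, where it called 9.08% of all genes. Of 7 sugar transporters tested (8 listed), 0 were called by edgeR, and 1, sut4, had an unadjusted p under 0.05 for age in KO (0.0452, adjusted p = 0.417) and for the difference of the age changes (0.0219, adjusted p = 0.790). It is named after its values were seen: sut4 had 43 and 0 counts in KO 25 d, 0 counts in all 3 KO 3 d libraries, 0, 2 and 0 counts in WT 25 d, and 1, 0 and 32 counts in WT 3 d. Nearly all of its counts were thus in KO 25 d replicate 1 and WT 3 d replicate 3, both among the libraries that stood apart. Of 4 sugar gustatory receptors tested (9 listed), 0 were called by edgeR and 0 had an unadjusted p under 0.05. For genotype at 3 d, limma voom with library quality weights called 1 hydrolase (Gal), 3 transporters (Glut1, sut2 and sut3) and 1 receptor (Gr43a). It called 20.1% of all genes in that comparison. For age in WT it called 1 hydrolase (Treh), against 16.8% of all genes.

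Of 17 genes of glycogen and trehalose metabolism and its regulators, edgeR called 1 for genotype, at both ages. It called 1.39% of all genes at 3 d and 1.74% at 25 d. The gene called was UGP, which makes the UDP-glucose used to build glycogen and trehalose. UGP had 61.2 and 65.3 CPM in KO 25 d, 68.5, 60.1 and 92.4 CPM in KO 3 d, 135, 128 and 115 CPM in WT 25 d, and 133, 136 and 172 CPM in WT 3 d. All KO libraries were below all WT libraries. UGP fell in KO, by a log2 fold change of -0.99 at 3 d (SE 0.18, adjusted p = 0.0228) and -1.0 at 25 d (SE 0.20, adjusted p = 0.0376). The sizes stayed between -1.19 and -0.87 over 22 alternative settings at each age, but the call ended in 7 of them at 3 d and in 11 at 25 d. Single libraries were enough: any of the 3 WT 3 d libraries, WT 25 d replicate 2 or KO 3 d replicate 1 or 2 at 3 d (adjusted p of 0.0537 to 0.113), and WT 3 d replicate 1 or 2, any WT 25 d library, KO 3 d replicate 1 or KO 25 d replicate 1 at 25 d (0.0636 to 0.146). For age, 0 of the 17 were called by edgeR, against 0.152% of all genes in WT and 0.0421% in KO, with 4 in WT and 5 in KO at an unadjusted p under 0.05. Glycogen synthase (GlyS) averaged 38.4 CPM in KO 25 d and 67.7 in KO 3 d, and 40.6 in WT 25 d and 70.2 in WT 3 d (adjusted p = 0.401 in KO and 0.479 in WT). Glycogen phosphorylase (GlyP) averaged 154 CPM in KO 25 d and 261 in KO 3 d, and 175 in WT 25 d and 262 in WT 3 d (adjusted p = 0.322 in KO and 0.407 in WT). Both are named although edgeR did not call them, a choice made after their values were seen. For age in WT, limma voom with library quality weights called 5 of the 17 (AGBE, GlyP, GlyS, Hex-A and daw). It called 16.8% of all genes there. For genotype at 3 d it called 5 (AGBE, UGP, bigmax, cbt and daw), against 20.1% of all genes. It called 0 of them for age in KO and for genotype at 25 d. DESeq2 called 3 (Hex-A, UGP and daw) for genotype at 25 d, against 9.08% of all genes, and 1 (AGBE) for age in KO. Shares of all genes are not given for those counts of 0 or for the AGBE call, so nothing is read from them. Medians of the 17 were -0.05 and -0.19 for genotype at 3 d and 25 d and -0.44 and -0.57 for age in WT and in KO.

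The genes whose log2 CPM followed each abundant maltase most closely over the 11 libraries were listed by Pearson's r, as a description of libraries that share groups and depth. For Mal-B1 these were CG13500 (r = 0.982), CG31955 (0.971) and Cyp6a14 (0.968). CG31955 averaged 42.3 CPM in KO 25 d, 26.8 in KO 3 d, 9.31 in WT 25 d and 4.14 in WT 3 d. For Mal-A1 they were RpS10a (0.958), CG34409 (0.954) and CG8526 (0.938), the last with 4.49 CPM in KO 25 d, 1.66 in KO 3 d, 4.79 in WT 25 d and 2.11 in WT 3 d. For Mal-A5 they were Npc2h (0.970), CG6543 (0.963) and CG7470 (0.963). For Mal-B2 they were Hn (0.926), Cyt-b5-r (0.919) and Adgf-D (0.919).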

How the data were processed

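RNA of the third antennal segment was DNase-treated and selected for poly(A) tails before libraries were made with a directional kit, per the labels' protocols. The authors deposited 1 table of raw counts per gene, made with featureCounts 1.4.5-p1 on dm6 gene models with strand ignored, per the file headers. STAR 2.4.2a and FastQC are named in the submitters' processing notes. Each column was assigned to the sample with its genotype, age and number, so both KO 25 d columns were matched by number. The table holds 1 further count column, named as KO 25 d, which was not used here. All genes were filtered with filterByExpr (11867 kept) and scaled by TMM. In R 4.3.3, edgeR 4.0.16 fitted 1 quasi-likelihood model of 4 group means over 11 libraries, with Benjamini-Hochberg adjustment over all genes tested and calls at an adjusted p under 0.05. Every adjusted p is from edgeR unless another tool is named. The common biological coefficient of variation was 0.431. Positive log2 fold changes mean higher in KO or at 25 d. limma 3.58.1 and DESeq2 1.42.0 were alternatives. The fit was tested on simulated counts. All 10 members are named whatever their values. From the 4 pathway lists, called members are named, and genes with an unadjusted p under 0.05 in lists with no call were added after their values were seen. Neighbouring genes are the nearest genes on each side of a cluster. The members and lists were chosen with earlier results of these data known.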

Additional observations from a re-analysis of the deposited data

How the results depend on the processing

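Each result was recomputed in up to 22 other settings, of which the 2 that leave out libraries that stood apart were added after seeing the data. For Mal-B1, Mal-B2, Mal-A1 and Mal-A5, 20 results gave 436 recomputed values, of which 38 turned sign (Mal-B2 22, Mal-A5 14, Mal-B1 2, Mal-A1 0). Adjusted p-values are edgeR's unless limma is named, and the cause of each change was not tested.

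The counts of maltase genes called rest on Mal-B1 for genotype and Mal-A1 for age, the values on which the family was chosen, so nothing is read from them. For KO versus WT at 25 d the count (1) was 0 with limma voom quality weights and with only the groups compared, 1 (Mal-B2) without the 3 libraries that stood apart, and 0 to 1 with single libraries left out, 0 when KO 25 d replicate 1 or WT 25 d replicate 3 was dropped. For age in WT (1) it was 2 with limma voom quality weights, where Mal-B1 was added, 2 without the 3 libraries that stood apart, where Mal-B2 was added, 0 with the replicate block, and 0 to 1 with single libraries left out, 0 without WT 3 d replicate 1 or 2, any WT 25 d library or KO 3 d replicate 2. For age in KO (1) it was 0 with limma voom quality weights, with the replicate block and with only the groups compared, 2 without the 3 libraries that stood apart, and 0 to 1 with single libraries left out, 0 without KO 3 d replicate 1 or 2. Over the 22 settings the age change of Mal-A1 stayed between 1.74 and 1.98 in WT and between 2.30 and 2.70 in KO. The UGP call also ended with only the groups compared (0.0634 at 3 d and 0.117 at 25 d) and, at 25 d, with upper-quartile scaling (0.051) and limma voom quality weights (0.463).

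Signs that turned were all of values that had not passed the test. For Mal-A5, age in WT was 0.03 with limma voom quality weights, 0.04 without both 3 d libraries numbered 3 and 0.04 without the 3 libraries that stood apart. Age in KO was 0.09, 0.19 and 0.33 in the same settings. With single libraries left out, Mal-A5 ranged from -1.61 to 0.22 for KO versus WT at 3 d, -1.11 to 0.04 for age in WT, -1.13 to 0.19 for age in KO and -0.83 to 1.0 for the difference of the age changes. For Mal-B1, age in KO was -0.46 without the 3 libraries that stood apart and ranged from -0.67 to 1.07 with single libraries left out. For Mal-B2, age in WT was 0.14 with limma voom, 0.65 with quality weights, 0.62 without both 3 d libraries numbered 3 and 0.62 without all 3, and age in KO was 0.13, 0.60, 0.83 and 1.17. Its difference of the age changes was 0.21 without both 3 d libraries numbered 3 and 0.55 without all 3. With single libraries left out, Mal-B2 ranged from -0.42 to 1.24 for KO versus WT at 3 d, -0.28 to 0.62 for age in WT, -0.61 to 0.83 for age in KO and -0.80 to 0.86 for the difference.

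The replicate block is not a pairing given by the labels: same-numbered libraries of different groups had correlations of -0.118 to 0.465, over 0.1 in 2 of 15 pairs. With the replicate block, Mal-B2 had age changes of 0.26 in WT and 0.45 in KO and a difference of 0.19, and UGP had an adjusted p of 0.0752 at 25 d.

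Counts over all genes moved most: over the planned settings they ran from 64 to 2382 for KO versus WT at 3 d (165 as reported), 20 to 5090 at 25 d (206), 2 to 1990 for age in WT (18), 0 to 4084 for age in KO (5) and 0 to 2987 for the difference (3). The highest values at 25 d, for age in KO and for the difference came without KO 25 d replicate 2, which leaves KO 25 d with the 1 library that stood apart.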
